A study of Mus musculus with 18 samples.

Results

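Genes that carry cells through mitosis and DNA replication were examined in phagocytes of the mouse small intestine sorted with or without green fluorescent protein (GFP), which in these mice is made by the epithelium. The genes were given as a list of 46 symbols. A gene was measured where at least 1 array probe was annotated to that symbol alone, which gave 44 of the 46 genes out of 22180 genes with such a probe. They comprised 29 genes of mitosis, 13 of DNA replication and 2 regulators, E2f1 and Cdkn1a. Ccnb1 had no probe of its own, and the one probe for Ccne2 is shared with Ints8, so neither is described.

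The data are 18 Affymetrix mouse gene arrays in 6 groups of 3. The labels give the strain as VDTR; in that line, as background, the villin promoter drives a diphtheria toxin receptor fused to GFP in intestinal epithelial cells. Every animal was injected intraperitoneally with 2 ng per kg of diphtheria toxin and killed after 4 h, so no group is untreated. Live CD45+ CD11c+ MHCII+ cells were sorted as GFP-plus and GFP-minus CD103 dendritic cells (DCs; CD103+ CD24+), GFP-plus and GFP-minus CD103CD11bCD64 macrophages, and GFP-plus and GFP-minus CD11bCD64 macrophages. Mice of both sexes were used and their ages were not given. An "n value" of 4 in the labels is left unexplained there. Nothing states that the arrays of 1 group are different animals, so a p-value reflects no more than the scatter among these arrays, which may be technical.

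As background, a dividing cell first duplicates its DNA and then separates the copies. Replication genes are switched on at the start of S phase by E2F transcription factors, whereas most mitosis genes peak later and are held down in resting cells by the DREAM complex, whose MuvB core binds a short promoter element called the cell cycle genes homology region (CHR). The inhibitor p21, encoded by Cdkn1a, blocks the cyclin-dependent kinases and so favours DREAM. Intestinal DCs arise from precursors that continue to divide in the tissue, while most intestinal macrophages are replaced from blood monocytes.

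The promoters of both classes were searched for these elements. RefSeq promoters (build GRCm38.p6, 250 bases before to 50 after the annotated start) were found for 38 of the 44 genes. Those of 6 genes are shown as examples: Kif11, Bub1, Haspin and Nusap1 of mitosis, and Mcm3 and Rrm2 of replication. Each runs 5′ to 3′ on the strand of its gene, and capitals mark every match to a searched motif.
Kif11, chr19:37376132-37376431 (+ strand): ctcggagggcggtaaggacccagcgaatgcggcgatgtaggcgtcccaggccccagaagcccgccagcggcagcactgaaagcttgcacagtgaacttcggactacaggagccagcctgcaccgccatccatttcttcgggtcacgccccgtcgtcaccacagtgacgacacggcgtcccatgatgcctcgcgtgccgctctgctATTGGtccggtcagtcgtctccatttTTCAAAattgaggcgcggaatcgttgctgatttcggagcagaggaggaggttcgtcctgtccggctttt
Bub1, chr2:127831810-127832109 (- strand): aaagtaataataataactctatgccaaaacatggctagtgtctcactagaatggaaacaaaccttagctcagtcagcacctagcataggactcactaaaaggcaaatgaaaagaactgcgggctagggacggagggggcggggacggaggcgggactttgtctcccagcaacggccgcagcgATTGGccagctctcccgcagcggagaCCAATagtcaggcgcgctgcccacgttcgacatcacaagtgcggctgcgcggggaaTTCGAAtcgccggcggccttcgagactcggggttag
Haspin, chr11:73138245-73138544 (- strand): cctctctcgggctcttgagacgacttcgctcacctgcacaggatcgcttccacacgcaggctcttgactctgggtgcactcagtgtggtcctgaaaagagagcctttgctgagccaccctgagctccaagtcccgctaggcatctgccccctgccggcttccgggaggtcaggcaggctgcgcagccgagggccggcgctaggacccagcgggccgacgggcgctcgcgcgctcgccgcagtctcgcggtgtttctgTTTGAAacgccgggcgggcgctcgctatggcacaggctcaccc
Nusap1, chr2:119618048-119618347 (+ strand): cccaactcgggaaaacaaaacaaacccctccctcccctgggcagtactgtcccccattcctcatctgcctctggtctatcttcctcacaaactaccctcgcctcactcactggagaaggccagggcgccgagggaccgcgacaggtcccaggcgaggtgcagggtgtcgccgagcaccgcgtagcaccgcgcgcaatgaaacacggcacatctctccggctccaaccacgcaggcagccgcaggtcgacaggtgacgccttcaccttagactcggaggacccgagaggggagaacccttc
Mcm3, chr1:20820263-20820562 (- strand): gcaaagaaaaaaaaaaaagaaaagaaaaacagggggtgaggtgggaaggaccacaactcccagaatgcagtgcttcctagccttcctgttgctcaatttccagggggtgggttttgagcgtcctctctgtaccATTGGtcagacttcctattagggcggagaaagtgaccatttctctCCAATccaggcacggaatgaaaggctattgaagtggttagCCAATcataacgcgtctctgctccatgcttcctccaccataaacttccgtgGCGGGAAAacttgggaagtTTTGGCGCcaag
Rrm2, chr12:24708004-24708303 (+ strand): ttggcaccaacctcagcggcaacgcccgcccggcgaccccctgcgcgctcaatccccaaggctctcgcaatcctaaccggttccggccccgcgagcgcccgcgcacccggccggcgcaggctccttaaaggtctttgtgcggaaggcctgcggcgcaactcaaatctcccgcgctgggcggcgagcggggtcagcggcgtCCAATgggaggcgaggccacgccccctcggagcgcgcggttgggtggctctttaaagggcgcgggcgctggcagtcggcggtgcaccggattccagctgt

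The 3 motifs searched, on both strands, were the CHR as TTTGAA or TTCGAA, the E2F site as TTTCCCGC, TTTGGCGC, TTTCGCGC or TTTGCCGC, and the CCAAT box as CCAAT. None of these words overlaps another within the windows shown. In Kif11 the capitals from left to right are a CCAAT box (first base 45 bases before the start) and a CHR (19 before). Bub1 held CCAAT boxes 68 and 42 bases before the start and a CHR at base 15 after it, and Haspin held a CHR alone, at base 8. Mcm3 held 3 CCAAT boxes and, at bases 20 and 39, E2F words. Rrm2 held a single CCAAT box 50 bases before the start, and none of the searched words occurred in the Nusap1 window, which says nothing about binding elsewhere.

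Shares were counted per gene, and a gene counted where any of its promoters held a match. A CHR word occurred in 21 of 25 mitosis genes (84%), in 2 of 11 replication genes (18.2%) and in 5854 of all 27025 genes with a promoter (21.7%). The E2F words had the opposite distribution, with 2 of 25 mitosis genes (8%), 6 of 11 replication genes (54.5%) and 704 of all genes with a promoter (2.6%). CCAAT boxes occurred in 68% of mitosis genes, 72.7% of replication genes and 41.1% of all genes with a promoter. Counted only within 50 bases of the start, the CHR was found in 19 of 25 mitosis genes (76%), 0 of 11 replication genes and 6.12% of all genes with a promoter. E2F words were found there in 1 of 25, 4 of 11 (36.4%) and 0.955%. A match is a description of letters and not a measured site.

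**Figure D1:**
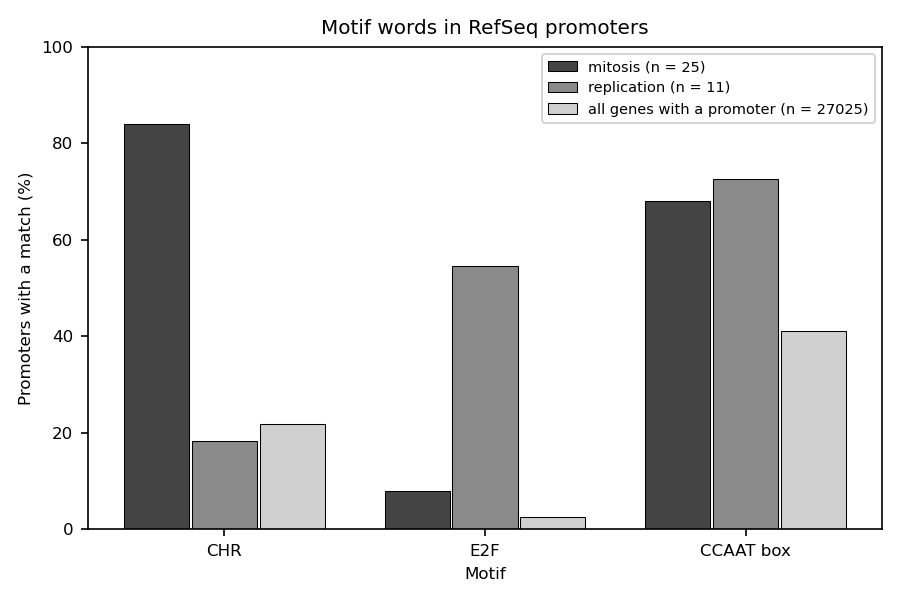
Percentage of genes (y axis) with a match to the CHR, the E2F words or the CCAAT box in any of their RefSeq promoters. Shown are 25 mitosis genes, 11 replication genes and all 27025 genes with a promoter. CHR words are found in 84% of mitosis genes against 18.2% of replication genes, and E2F words in 54.5% of replication genes against 8% of mitosis genes.

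Before any result, the sorting markers were compared with the gates. Itgae, which encodes CD103, lay between 4.93 and 5.56 on all 6 DC arrays, on a log2 scale centred on the median of 18 arrays for each probe. It was 3.44, -0.43 and 2.67 on the GFP-minus CD103CD11bCD64 arrays and -0.44, -0.15 and 0.05 on the GFP-plus ones, while the 6 CD11bCD64 arrays ran from -0.53 to -0.05. On 4 of the 6 arrays labelled CD103CD11bCD64, Itgae RNA was therefore at or near the level of the gate without CD103, although the label names CD103. The gate is set on surface protein, which arrays do not measure, so RNA cannot show whether these cells carried CD103. Values with the CD11bCD64 macrophages alone are given where they change a call. All 11 measured macrophage markers were lower in DCs, and 6 of 9 DC markers were higher, in both GFP gates. Array interquartile ranges were 0.578, 0.394 and 0.474 in GFP-plus DCs, against 0.375, 0.278 and 0.293 in GFP-minus DCs. Because each probe was centred, the values give differences between groups and not absolute levels or detection, and levels of different genes cannot be compared.

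The first question was whether GFP-plus DCs differ from GFP-minus DCs of the same gate. Mitosis genes were lower in GFP-plus DCs: 5 of 29 passed the test as lower and none as higher, led by Haspin, Nusap1, Kif11, Cenpe and Bub1. The CDK inhibitor Cdkn1a was the 1 member that passed as higher. No replication gene passed, although 12 of 13 had a negative difference. Over all 44 genes, 6 passed (5 lower and 1 higher), whereas 1.58% of all genes passed in this comparison, 1.26% lower and 0.325% higher. Tests are limma's moderated test over all 22180 genes, with Benjamini-Hochberg adjusted p under 0.05, and errors on differences are standard errors (SE) with 3 arrays per group.

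**Figure D2:**
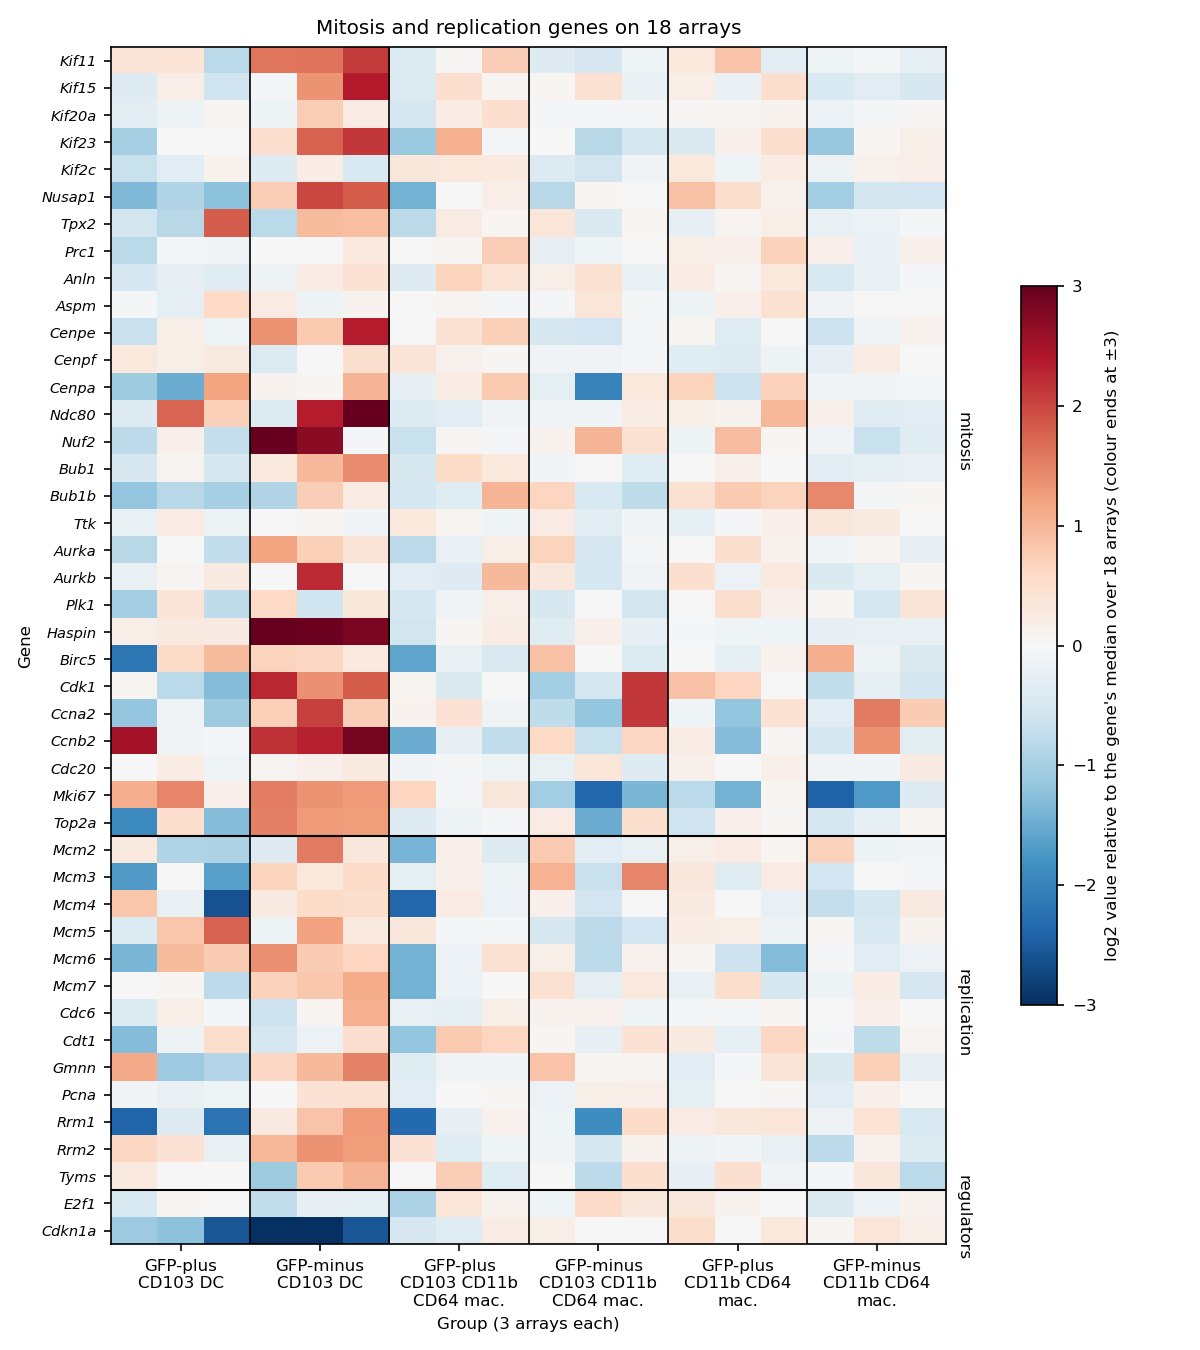
Values of the 44 measured genes (rows, ordered by class and role) on the 18 arrays (columns, by group), as log2 relative to each probe's median, shown by colour. The 3 GFP-minus DC arrays hold the highest values of Haspin (2.82 to 4.09) and Kif11 (1.60 to 2.11), and Cdkn1a is low on all 6 DC arrays.

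**Figure D3:**
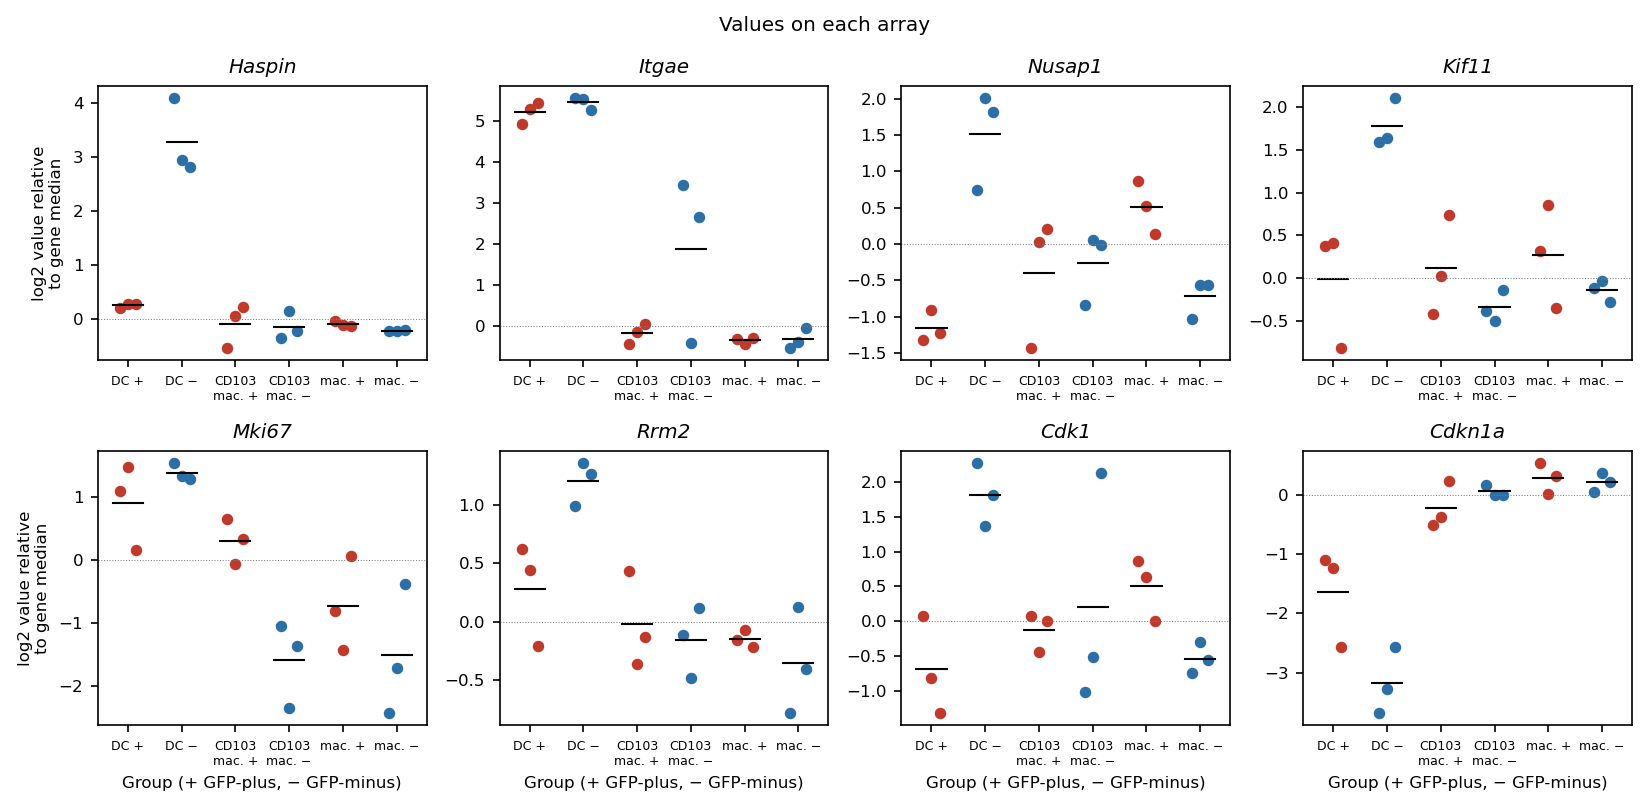
Log2 values relative to each probe's median (y axis; the scale differs between panels) for selected genes in the 6 groups; points are arrays and lines are group means of 3. Haspin is between 0.195 and 0.272 in GFP-plus DCs and between 2.82 and 4.09 in GFP-minus DCs, while Mki67 overlaps between them.

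Haspin encodes the kinase that phosphorylates histone H3 on threonine at centromeres to recruit Aurora B. It stood at 0.195, 0.263 and 0.272 in GFP-plus DCs, against 4.09, 2.95 and 2.82 in GFP-minus DCs. The groups did not come near each other, and the GFP-plus DC values lay close to the macrophage arrays, which ran from -0.54 to 0.22. The difference was -3.04 ± 0.27 (8.24-fold lower, adjusted p = 7.00e-05 in limma). Haspin lies within the span of Itgae on the RefSeq annotation, and Itgae itself differed by -0.24 ± 0.65 (adjusted p = 0.909 in limma) between these groups.

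Among spindle genes, Nusap1 and Kif11 passed out of 10 measured. Nusap1, a microtubule-binding protein of the spindle, was at -1.32, -0.91 and -1.22 in GFP-plus DCs, against 0.74, 2.00 and 1.81 in GFP-minus DCs, a difference of -2.67 ± 0.42 (6.36-fold lower, adjusted p = 0.00657 in limma). Kif11, the kinesin that pushes the spindle poles apart, was at 0.38, 0.42 and -0.82 in GFP-plus DCs and at 1.60, 1.64 and 2.11 in GFP-minus DCs. Its difference was -1.79 ± 0.36 (3.46-fold lower, adjusted p = 0.0281 in limma). Neither gene's groups overlapped. The other 8 spindle genes ran from -1.80 for Kif23 to 0.03 for Aspm and did not pass, so the median over all 10 was -0.48.

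At the kinetochore, the structure that ties chromosomes to spindle fibres, 1 of 5 genes passed. The motor protein gene Cenpe was at -0.66, 0.18 and -0.12 in GFP-plus DCs, against 1.34, 0.77 and 2.36 in GFP-minus DCs. Every GFP-plus array was lower than every GFP-minus array, and the difference was -1.69 ± 0.35 (3.23-fold lower, adjusted p = 0.0311 in limma). Nuf2, a subunit of the Ndc80 complex, had a larger mean difference of -2.50 ± 0.66 but overlapped, with GFP-minus DC values of 3.50, 2.70 and -0.04, and did not pass (adjusted p = 0.0793 in limma).

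The checkpoint and mitotic kinase genes numbered 8, counting Birc5, which does not encode a kinase. Of these 8, Haspin and Bub1 passed and all 8 differences were negative (median -0.89). Bub1, a kinase of the spindle checkpoint, was at -0.48, 0.07 and -0.51 in GFP-plus DCs, against 0.29, 0.97 and 1.42 in GFP-minus DCs. The groups did not overlap, and the difference of -1.20 ± 0.28 (2.30-fold lower) passed narrowly (adjusted p = 0.0498 in limma). Aurka, the Aurora kinase of spindle poles, did not pass at -1.29 ± 0.32 (adjusted p = 0.0653 in limma).

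None of the 4 measured mitotic cyclin and exit genes and neither chromosome structure gene passed. Cdk1, the kinase that starts mitosis, was at 0.08, -0.81 and -1.31 in GFP-plus DCs and 2.26, 1.36 and 1.81 in GFP-minus DCs, without overlap, at -2.49 ± 0.61 (adjusted p = 0.0606 in limma). Top2a, the topoisomerase that untangles chromosomes, was at -1.91, 0.50 and -1.29 in GFP-plus DCs and 1.51, 1.29 and 1.26 in GFP-minus DCs, also without overlap, at -2.25 ± 0.54 (adjusted p = 0.0573 in limma). Mki67, the proliferation marker that coats mitotic chromosomes, was 1.09, 1.47 and 0.16 in GFP-plus DCs and 1.53, 1.34 and 1.28 in GFP-minus DCs. Its groups overlapped, with a difference of -0.48 ± 0.51 (adjusted p = 0.712 in limma).

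Across the replication genes the differences were negative in 12 of 13 with a median of -0.92, yet none passed, and the smallest adjusted p was 0.0944. At an unadjusted p under 0.05, 6 of the 13 were lower, against 10% of all genes. Mcm2 to Mcm7 form the helicase that opens the DNA: Mcm3 was at -1.70, -0.02 and -1.63 in GFP-plus DCs and 0.66, 0.31 and 0.58 in GFP-minus DCs, while Mcm2 (-1.02 ± 0.51) overlapped and Mcm5 was the 1 positive value (0.29 ± 0.43). Pcna, the sliding clamp of DNA polymerase, was at -0.09, -0.22 and -0.13 in GFP-plus DCs, against 0.02, 0.43 and 0.45 in GFP-minus DCs. Its arrays did not overlap and its difference was small (-0.45 ± 0.17, adjusted p = 0.210 in limma). The ribonucleotide reductase genes Rrm1 and Rrm2, which supply DNA building blocks, had differences of -2.47 ± 0.69 and -0.92 ± 0.27; the 2 Rrm2 probes gave -0.58 ± 0.28 and -1.26 ± 0.45.

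Counted without a fold or a test, all GFP-plus DC arrays lay below all GFP-minus DC arrays in 17 of the 44 genes, 12 of mitosis and 5 of replication, against 11.5% of all genes. None lay wholly above, against 8.66% of all genes. The median of the 29 mitosis differences was -1.03, of the 13 replication differences -0.92 and of all genes -0.02. Fewer dividing cells and less of these RNAs per cell cannot be told apart in such bulk samples.

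Cdkn1a was the regulator that passed. It was at -1.10, -1.24 and -2.57 in GFP-plus DCs, against -3.67, -3.28 and -2.57 in GFP-minus DCs, so the groups met at 1 array of each. The difference was 1.54 ± 0.35 (2.90-fold higher, adjusted p = 0.0440 in limma), and E2f1, the factor that drives S phase entry, was not called (0.28 ± 0.30, adjusted p = 0.706). Among 18 other p53 targets 1 passed as lower, Btg2 (-0.74 ± 0.17), and the list's median was -0.22.

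**Figure D4:**
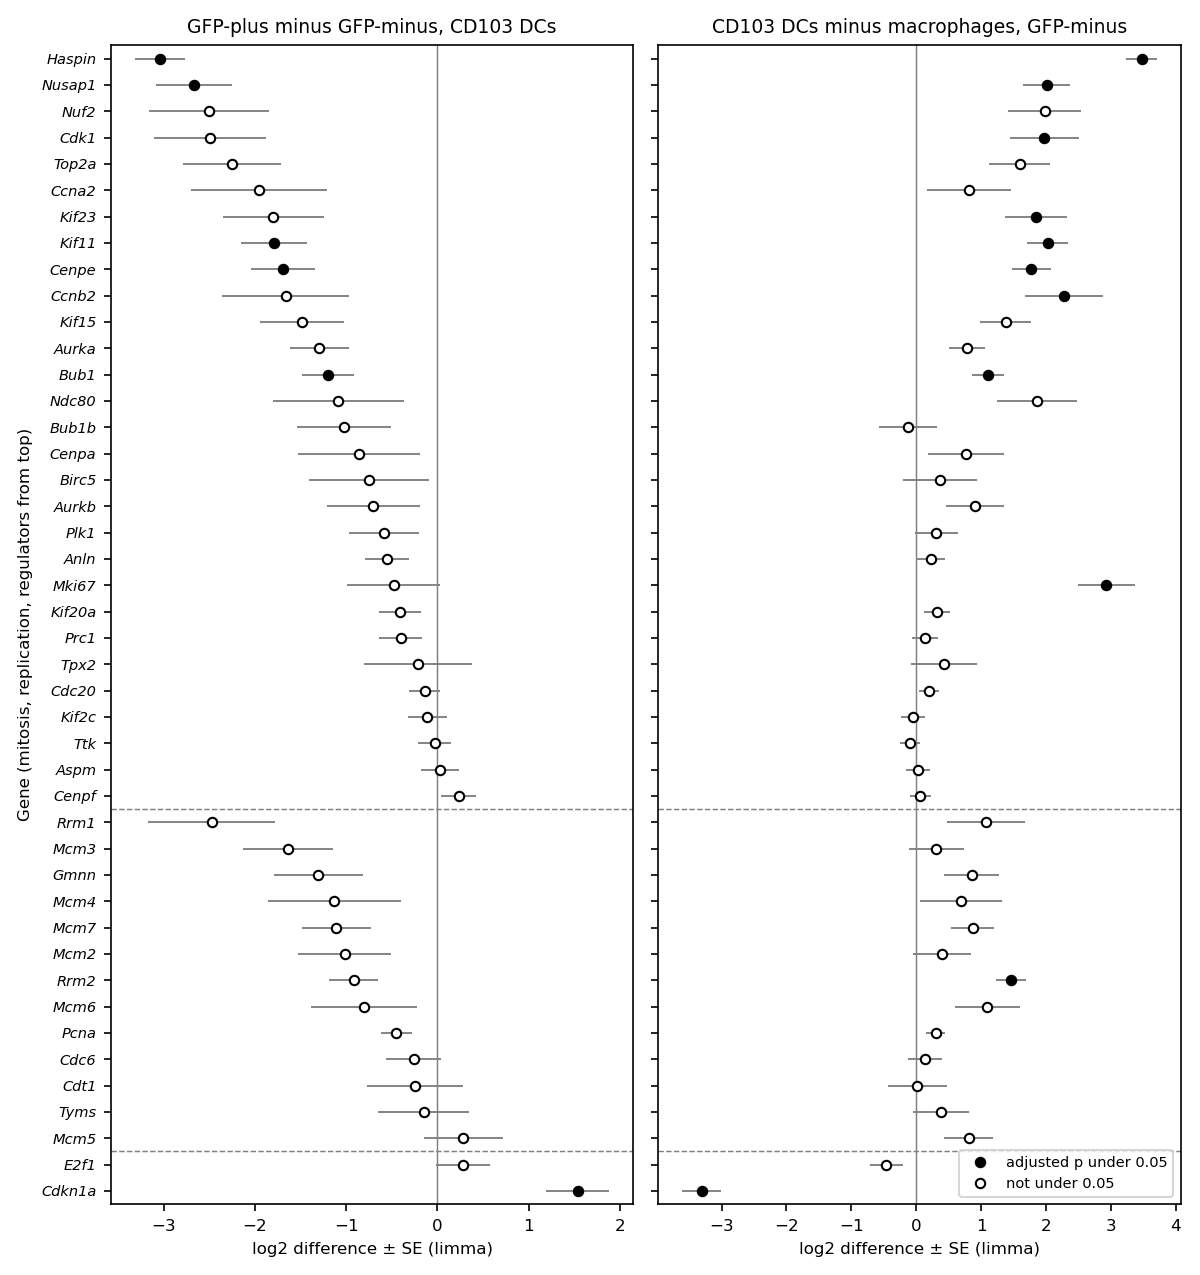
Difference (x axis, log2, with SE) of each measured gene (rows, by class) for GFP-plus minus GFP-minus DCs (left) and for GFP-minus DCs minus macrophages (right); filled points passed an adjusted p of 0.05. On the left 39 of 44 points lie below 0, with Haspin at -3.04 and Nusap1 at -2.67, and on the right 39 lie above 0.

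Haspin and Nusap1 passed whichever DC array was left out (adjusted p from 1.23e-05 to 0.0361 in limma), and with only the 6 DC arrays in the fit Haspin alone passed (0.0453, against 0.0686 for Nusap1). After quantile normalization Kif11, Cenpe, Bub1 and Cdkn1a did not pass (0.247, 0.131, 0.170 and 0.0580). With array weights Top2a passed (0.0492), while Cenpe and Cdkn1a did not (0.0899 and 0.0653). Without GFP-plus DC replicate 2 Top2a passed (0.00462). Single arrays also ended these calls. Kif11 did not pass without GFP-plus DC replicate 3 (0.0753) or GFP-minus DC replicates 2 (0.0752) or 3 (0.104). Cenpe did not pass without GFP-plus DC replicates 1 (0.110) or 3 (0.0632) or GFP-minus DC replicate 3 (0.0929). Bub1 did not pass without GFP-plus DC replicates 1 (0.145) or 3 (0.129) or GFP-minus DC replicates 2 (0.150) or 3 (0.177). Cdkn1a did not pass without GFP-plus DC replicates 1 (0.150) or 2 (0.0803) or GFP-minus DC replicates 1 (0.110) or 2 (0.139). The count of 6 became 3 without GFP-plus DC replicate 3 or GFP-minus DC replicate 2, and the median of the mitosis genes became -0.57 without GFP-plus DC replicate 1.

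Markers of other cells moved beside these genes in GFP-plus DCs. Of 12 T and innate lymphocyte markers 1 passed as lower, the granzyme gene Gzma (-3.88 ± 0.47), which was at -1.65, -1.56 and -1.49 in GFP-plus DCs and 1.41, 2.77 and 2.75 in GFP-minus DCs. The mean over those 12 markers ran from -0.34 to -0.03 in GFP-plus DCs, against 0.18 to 1.02 in GFP-minus DCs. Of 11 macrophage markers 2 passed as lower (C1qa and Lyz2; mean from -4.74 to -4.22, against -4.21 to -3.39), and of 8 B and plasma cell markers 1 did (Ighm; mean from -0.60 to -0.52, against 0.02 to 0.67). Of 10 secretory epithelium markers 1 passed as higher, the Paneth cell peptide gene Defa24, and the mean over them ran from 0.15 to 0.74, against -0.38 to -0.27. Enterocyte markers ran from 0.37 to 0.77, against -0.13 to 0.10, with 0 of 15 called. Crypt stem and general epithelium markers ran from -0.04 to 0.06, against -0.13 to 0.00, with 0 of 12 called. That list holds no gene of cell division, so it does not assess dividing epithelium. DC markers, with 0 of 9 called, ran from 2.14 to 2.77, against 2.57 to 2.76. Monocyte markers, with 0 of 9 called, ran from -0.50 to -0.32, against -0.16 to 0.25, without overlap. At an unadjusted p under 0.05, 3 of these 9 were lower and 0 higher, while 4 of the 9 differences were above 0. Centring hides whether any of these genes is near background, and their part in the mitosis result was not tested.

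The next question was whether DCs differ from macrophages without GFP. In GFP-minus cells, DCs were higher than the 2 macrophage populations in 10 of the 44 genes and lower in 1: 9 of 29 mitosis genes and 1 of 13 replication genes, Rrm2, passed as higher, and Cdkn1a as lower. The background was 4.71% of all genes, 2.23% higher and 2.48% lower. The largest rises were Haspin (3.47 ± 0.24, 11.1-fold), Mki67 (2.93 ± 0.44, 7.62-fold) and Ccnb2 (2.27 ± 0.60, 4.83-fold), which encodes a B-type cyclin. Kif11 (2.02 ± 0.31), Nusap1 (2.01 ± 0.36), Cdk1 (1.98 ± 0.53), Kif23, a kinesin of cell division (1.85 ± 0.48), Cenpe (1.77 ± 0.30), Rrm2 (1.46 ± 0.23) and Bub1 (1.11 ± 0.24) followed, with adjusted p-values from 2.06e-07 to 0.0474 in limma. Haspin lies within the span of Itgae, which was itself higher in GFP-minus DCs here (4.68 ± 0.56, adjusted p = 8.99e-05 in limma). The part of Itgae in the Haspin value was not tested. The median over mitosis genes was 0.82, over replication genes 0.69 and over all genes -0.03. All GFP-minus DC arrays lay above all 6 GFP-minus macrophage arrays in 13 genes (9 mitosis, 4 replication), against 4.68% of all genes, and below them in 1, Cdkn1a (4.63%). With 1 array left out in turn, Bub1 did not pass without GFP-minus DC replicates 2 or 3 (adjusted p = 0.0757 and 0.114), and Kif23, Ccnb2 and Cdk1 passed in 3, 2 and 1 of 9 omissions, with adjusted p-values up to 0.211, 0.188 and 0.194. Without GFP-minus DC replicate 2 the count of 11 became 7. These 3 genes did not pass against the CD11bCD64 macrophages alone (0.123, 0.113 and 0.053).

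Genes listed as markers of other cells also differed between GFP-minus DCs and GFP-minus macrophages. Of 8 B and plasma cell markers 2 passed as higher, the antibody chain genes Jchain (2.24 ± 0.46) and Ighm (2.22 ± 0.38), and 2 as lower, Sdc1 (-2.12 ± 0.40) and Cd79b (-2.14 ± 0.49). Their mean ran from 0.02 to 0.67 in DCs, against 0.30 to 0.64 in CD103CD11bCD64 and -0.42 to 0.30 in CD11bCD64 macrophages. Of 12 T and innate lymphocyte markers Cd8a passed as higher (2.54 ± 0.33), and their mean ran from 0.18 to 1.02 in DCs, against 1.43 to 3.002 and -0.39 to -0.06 in those macrophages. The peptidase gene Anpep passed as higher (1 of 15 enterocyte markers) and Lyz1 as lower (1 of 10 secretory epithelium markers). Of 12 crypt stem and general epithelium markers 0 passed, and 0 of 9 monocyte markers did. Cd8a and Anpep also passed as higher in GFP-plus DCs over GFP-plus macrophages (2.79 ± 0.33 and 1.73 ± 0.44), whereas 0 of 8 B and plasma cell markers did. The list that holds a gene does not show which cells its RNA came from. The part of these markers in the result was not tested.

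Cdkn1a had the largest difference of the opposite sign among the members, at -3.67, -3.28 and -2.57 in GFP-minus DCs, against 0.00 to 0.36 on the 6 GFP-minus macrophage arrays. The gap was wide and without overlap (-3.30 ± 0.30, 9.88-fold lower, adjusted p = 5.00e-06 in limma).

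In GFP-plus cells no member passed as higher in DCs. Of the 44 genes 2 passed, both lower: Cdkn1a (-1.67 ± 0.30, adjusted p = 0.00212) and Nusap1 (-1.21 ± 0.36, adjusted p = 0.0448 in limma). The background was 11.2% of all genes, 2.69% higher and 8.49% lower. All GFP-plus DC arrays lay below all 6 GFP-plus macrophage arrays in 3 members (9.72% of all genes) and above them in 0 (4.89%). Medians were -0.36 for mitosis, -0.06 for replication and -0.04 for all genes. Nusap1 passed only without GFP-plus CD103CD11bCD64 replicate 1 (0.00435) or GFP-plus CD11bCD64 replicate 3 (0.0496) when 1 of the 9 arrays was left out, and without the first of these the count became 6. Nusap1 did not pass after quantile normalization (0.128). Mki67 was higher by 1.12 ± 0.44 without passing (adjusted p = 0.131 in limma), with values of 1.09, 1.47 and 0.16 in GFP-plus DCs, against -1.42 to 0.65 in GFP-plus macrophages. The 2 DC to macrophage comparisons and the GFP comparisons share arrays, so their values are given side by side and not as separate support.

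Whether the GFP difference itself differed between DCs and macrophages was tested as a contrast of contrasts. Of the 44 genes 5 passed, all lower in DCs: Nusap1 (-3.22 ± 0.51, adjusted p = 0.00849), Haspin (-3.14 ± 0.33, 0.000681), Kif11 (-2.23 ± 0.44, 0.0276), Cenpe (-2.12 ± 0.43, 0.0283) and Bub1 (-1.50 ± 0.34, 0.0490), by limma. All 5 are mitosis genes and the background was 1.33% of all genes, 1.15% lower. The median difference was -1.24 for mitosis, -0.71 for replication and -0.03 for all genes. Haspin and Nusap1 passed in all 18 single-array omissions, Kif11 in 14 (adjusted p up to 0.0815), Cenpe in 11 (up to 0.0775) and Bub1 in 4 (up to 0.124). The count of 5 ran from 2, without GFP-plus CD11bCD64 replicate 1, to 8, without GFP-plus CD103CD11bCD64 replicate 1. It was 2, Haspin and Nusap1, against the CD11bCD64 macrophages alone and after quantile normalization. In the same contrast 1 of 12 T and innate lymphocyte markers passed as lower, Gzma (-3.08 ± 0.58), and 1 of 10 secretory epithelium markers as higher, Defa24 (3.83 ± 0.66). No macrophage marker passed, although 8 of 11 were lower at an unadjusted p under 0.05 and their median was -0.96. The part of these markers was not tested.

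Within macrophages no GFP difference was detected in these genes. In CD103CD11bCD64 macrophages 0 of 44 passed in limma (background 0.0541%), and 2 had an unadjusted p under 0.05, against 9.2% of all genes. All GFP-plus arrays lay above all GFP-minus arrays in 5 genes (7.54% of all genes) and below them in 3 (5.44%). Mki67 was at 0.65, -0.06 and 0.33 in GFP-plus cells, against -1.04, -2.35 and -1.37 in GFP-minus cells, and so did not overlap (1.90 ± 0.51, adjusted p = 0.200). Kif2c, a kinesin that dismantles microtubules, was the other (0.67 ± 0.22, adjusted p = 0.299). In CD11bCD64 macrophages 0 of 44 passed in limma (background 0.0271%, 0.0135% in each direction), and the arrays separated upward in 7 genes, all of mitosis (9.63% of all genes), and downward in 0 (6.24%). An unadjusted p under 0.05 was found for 1 of the 44, against 6.16% of all genes: Nusap1 (1.23 ± 0.42, adjusted p = 0.627), opposite in sign to its DC difference. Averaged over the 3 populations, 1 gene passed, Haspin (-0.95 ± 0.16, adjusted p = 0.0214 in limma; background 0.41%). Its differences were -3.04 in DCs, 0.06 in CD103CD11bCD64 and 0.13 in CD11bCD64 macrophages, and it did not pass without GFP-plus CD11bCD64 replicate 3 (0.0563) or GFP-minus CD11bCD64 replicate 2 (0.0502).

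CD103CD11bCD64 and CD11bCD64 macrophages were compared over both GFP gates. No member passed in limma (0 of 44) and 0 had an unadjusted p under 0.05 (5.51% of all genes), where 0.0721% of all genes passed, 0.0631% higher and 0.00902% lower. The arrays of the 2 populations separated in 0 members, against 0.194% of all genes upward and 0.14% downward. Differences ran from -0.77 to 0.47. One GFP-minus CD103CD11bCD64 array, replicate 3, held Cdk1 at 2.13 and the cyclin gene Ccna2 at 2.11, while the other 2 arrays of that group were at -1.01 and -0.52 for Cdk1 and -0.77 and -1.17 for Ccna2.

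**Figure D5:**
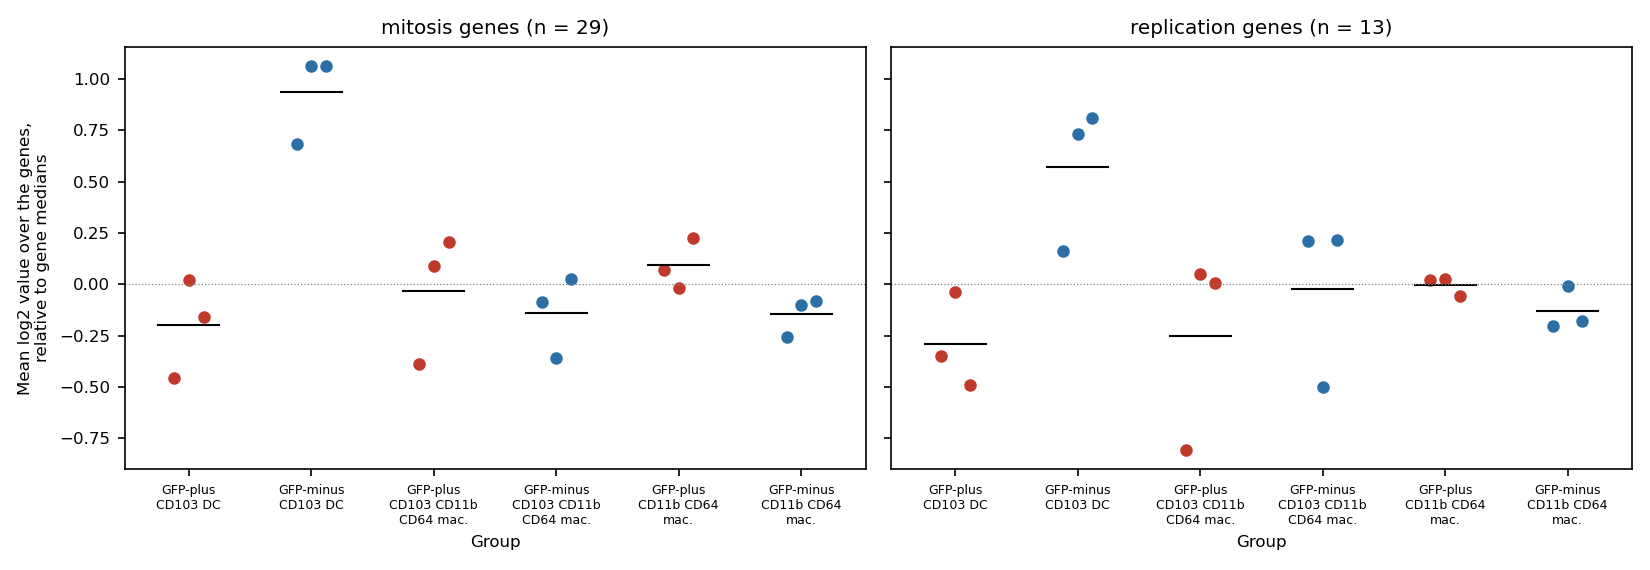
Mean log2 value over the 29 mitosis and the 13 replication genes on each array (y axis, points) in the 6 groups, with lines at the mean of 3 arrays. GFP-minus DCs lie highest in both classes, at 0.94 for mitosis and 0.57 for replication, against -0.20 and -0.29 in GFP-plus DCs.

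Mitosis and replication genes were then set against each other on the same arrays. The mean over the mitosis genes was -0.20 ± 0.24 in GFP-plus DCs and 0.94 ± 0.22 in GFP-minus DCs (SD, n = 3 each). The mean over the replication genes was -0.29 ± 0.23 and 0.57 ± 0.35 in the same groups. Mitosis minus replication was -0.11, 0.06 and 0.33 on GFP-plus DC arrays, against 0.52, 0.33 and 0.25 on GFP-minus DC arrays, so the groups overlapped. Within the mitosis class the 21 genes with a CHR had a median DC difference of -1.03, and the 4 without (Birc5, Cenpe, Nuf2 and Nusap1) one of -2.10. Within the replication class the 6 genes with an E2F word had a median of -0.53 and the 5 without one of -0.92.

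Other genes of the same pathways were lower in GFP-plus DCs where they passed. Of 50 other mitosis genes 3 passed as lower: Hmmr, a spindle-associated protein (-1.41 ± 0.16), Smc2, a condensin subunit (-2.04 ± 0.39) and Cdca3, which helps trigger mitotic entry (-2.39 ± 0.47). In this list 46 of 50 differences were below 0 and the median was -0.56, where 1.26% of all genes passed as lower and 52.9% were below 0. Of 45 other replication genes 2 passed as lower, Cdc45 of the replicative helicase (-2.27 ± 0.29) and Rpa1, which coats single-stranded DNA (-1.41 ± 0.29), and 43 of 45 were below 0 with a median of -0.82. Among 19 E2F, DREAM and MuvB factors, E2f8 (-1.42 ± 0.24) and Tfdp1 (-1.59 ± 0.36) passed as lower, and 17 of the 19 were below 0. Among 17 genes for G1 cyclins, kinases, inhibitors and related factors, the phosphatase gene Cdc25a (-1.51 ± 0.35) passed as lower. That list was mixed, with 10 differences below 0 and 7 above, from -1.57 to 2.15. At an unadjusted p under 0.05, 4 of the 17 were lower and 3 higher. No gene of these 4 lists passed as higher. Cdc45 was at -0.07, -0.24 and -0.06 in GFP-plus DCs, against 1.55, 2.48 and 2.41 in GFP-minus DCs, and these groups did not overlap.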

How the data were processed

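Per the labels' protocols, cells were sorted into TRIzol LS, RNA was cleaned on RNeasy columns with DNase, and 1 ng went into amplification (NuGEN WT Ovation Pico). The authors deposited log2 values for 33793 probes, each centred on its median over the 18 arrays. The log base was inferred from the widest probe span (10.15). The sources used here do not give the summarisation or normalization. The number of arrays limits the precision.

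Probes with 1 symbol (23521; 1814 had several, 8458 none) were averaged per gene, giving 22180 genes. limma 3.58.1 (R 4.3.3) fitted 1 mean per group to all 18 arrays (12 residual, 2.089 prior degrees of freedom), with two-sided Benjamini-Hochberg adjusted p over all genes, threshold 0.05. On simulated data for the DC GFP comparison this fit called 46% of the genes simulated with a log2 difference of 1, 84% with 2, 86% with 3 and 98% with 4, with 8 false of 165 calls. The simulated noise was normal and independent, with 1 spread per gene on all 18 arrays, and no other group differences were added. In the data the arrays were unequal, with weights from 0.352 to 2.518, so these rates need not hold for the DC comparison. Quantile normalization, arrays of the compared groups only, array weights, the 4 lowest-weight arrays left out, a replicate block, the most variable probe and single arrays left out were the alternatives.

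Members and lists were chosen with earlier results of these data known. Genes named are the members that passed in a comparison, or, with under 5 of those, the 5 of lowest p, always Mki67, Top2a, Cdk1, Mcm2, Pcna and Cdkn1a, and up to 3 passing genes of each other list. Motifs were exact matches on either strand. Aurka, Nuf2, Mcm3, Mcm5, Rrm1, Rrm2, Kif23, Aspm, Ccna2, E2f1, Pmaip1 and Cd79b were also named after their values were seen.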

Additional observations from a re-analysis of the deposited data

Results flagged for a closer look

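The difference between the GFP effect in DCs and the mean GFP effect in both macrophage populations passed in limma for 10 of the members and listed cell cycle and p53 genes, 5 of them members, and was negative, that is lower in DCs, in 9. The genes looked at were the 44 members and lists of 50 other mitosis, 45 other replication, 19 E2F, DREAM and MuvB, 17 G1 and 18 p53 genes. In this contrast 1.33% of all genes passed, 0.18% higher and 1.15% lower. The member values were -3.22 for Nusap1, -3.14 for Haspin, -2.23 for Kif11, -2.12 for Cenpe and -1.50 for Bub1. Outside the members, the condensin gene Smc2 gave -2.88, Cdc45 -2.52, E2f8 -1.85 and the hyaluronan receptor Hmmr -1.63. Bbc3, which encodes the apoptosis factor PUMA, was the 1 positive difference, at 1.76. It was at 0.00, 0.62 and 0.50 in GFP-plus DCs, against -1.16, 0.01 and -0.16 in GFP-minus DCs, so these groups overlapped. The GFP difference of Bbc3 was 0.81 in DCs, -1.09 in CD103CD11bCD64 and -0.82 in CD11bCD64 macrophages, so the 1.76 holds a fall in macrophages as well. Groups of 3 arrays are too small for an outlier test.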

How the results depend on the processing

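No result that passed changed direction under any alternative. After quantile normalization the counts of called genes were 2 (DC GFP difference), 2 (difference of GFP effects) and 1 (DCs over macrophages, GFP-plus), and the mitosis medians -0.58, -0.74 and -0.10 in the same order, with -0.40 for the replication genes in the second. Fitting only the arrays compared gave 1 call in the DC GFP difference. Leaving out the 4 lowest-weight arrays gave 0 calls in the mean of 3 populations, 3 in the difference of effects and 4 in GFP-plus DCs over macrophages, with mitosis medians of -0.57 (DC), 0.37 (CD103CD11bCD64) and -0.95 (difference). Against CD11bCD64 macrophages alone, an alternative added after seeing the data, the difference of effects had 2 calls and a replication median of -1.04. The cause was not tested.

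With single arrays left out, counts ran from 3 to 9 (DC), 0 to 2 (mean of 3), 2 to 8 (difference), 7 to 11 (DCs over macrophages, GFP-minus) and 1 to 6 (GFP-plus). Mitosis medians ran from -1.14 to -0.57 (DC), -1.62 to -1.09 (difference) and 0.65 to 1.04 (GFP-minus), and the CD103CD11bCD64 replication median from -0.56 to -0.06.

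Signs turned for values that did not pass as reported. After quantile normalization Top2a was -0.11 and -0.30 in the CD103CD11bCD64 and CD11bCD64 GFP differences, 0.063 in GFP-plus DCs over macrophages (Pcna 0.061) and 0.20 between macrophages. The Top2a value in GFP-plus DCs over macrophages passed, as lower, without GFP-plus DC replicate 2 (-1.44, adjusted p = 0.0366 in limma). With array weights Top2a was -0.15 and 0.15 in the CD103CD11bCD64 and macrophage comparisons, and Cdk1 -0.10 between macrophages. Without the 4 arrays Top2a was -0.46, -0.045 and 0.26 in CD103CD11bCD64, CD11bCD64 and between macrophages, where Mcm2 was 0.051. Single arrays moved Top2a between -0.56 and 0.44, -0.048 and 0.32, and -0.22 and 0.28 in these 3. Between macrophages Cdk1 ran from -0.43 to 0.36 and Pcna from -0.017 to 0.11. Cdk1 ran from -0.93 to 0.64 in the CD103CD11bCD64 difference, and in the CD11bCD64 difference Mcm2 from -0.13 to 0.29, Pcna from -0.15 to 0.10 and Cdkn1a from -0.042 to 0.21. Mcm2 ran from -0.13 to 0.84 in GFP-minus DCs over macrophages.

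Deviations of same-numbered replicates correlated between -0.14 and 0.25, and those of differently numbered replicates between -0.30 and 0.26. With 3 arrays per group these values cannot show whether same-numbered samples are paired, and the labels do not say. A replicate block left every count within 1.5 times: 5 calls in the DC GFP difference, 6 in the difference of effects, 9 and 3 for DCs over macrophages in GFP-minus and GFP-plus cells. It removed Cdkn1a (adjusted p = 0.0629 in limma) from the first. Centred values do not show which probes lie near background, which limits any reading of small differences.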

Other observations

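Probes annotated to a member and another symbol were left out of the counts above. The 2 probes shared by Top2a and Taf1d differed by -1.22 ± 1.12 and -1.53 ± 1.23 between GFP-plus and GFP-minus DCs (SE). The probe shared by Ccne2, a cyclin of S phase entry, and Ints8 differed by -0.58 ± 0.43. The probe shared by Oip5 and Nusap1 differed by -0.24 ± 0.13, against -2.67 ± 0.42 for the probe of Nusap1 alone. The probe shared by Tyms and Tyms-ps differed by 0.16 ± 0.60, and those Mcm7 shares with Mir25 and with Mir93 by -0.43 ± 0.17 and 0.29 ± 0.27.

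The p53 targets did not move as a group with Cdkn1a in GFP-minus DCs over macrophages. Of 18, Plk2 (-2.16 ± 0.40), Sesn1 (-1.94 ± 0.31) and Bbc3 (-1.13 ± 0.28) passed as lower and Pmaip1 (1.92 ± 0.47) as higher, with a list median of 0.00. Over all genes 2.23% passed as higher and 2.48% as lower in this comparison. Among other mitosis genes in the same comparison 8 of 50 passed as higher, with Hmmr (1.20 ± 0.14), Cenph, a kinetochore gene (2.50 ± 0.41), and Smc2 (1.94 ± 0.34) having the smallest p.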
